A study of Homo sapiens with 4 samples.

Results

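The 10 tubulin genes examined here, TUBB, TUBB2A, TUBB2B, TUBB3, TUBB4B and TUBB6 of the β family and TUBA1A, TUBA1B, TUBA1C and TUBA4A of the α family, were followed in pancreatic cancer cells after radiation. They are 10 of the 58174 genes with an Ensembl identifier in the deposited table, and they were taken by gene name. The family was chosen by the log2 fold changes of TUBB2B, which was lower after radiation in both cell lines, so the values of TUBB2B in that comparison are a description and support nothing by themselves. SW1990 and PANC-1, both established human pancreatic cancer cell lines, were left unirradiated (0 Gy) or treated with 10 Gy of X-rays, and their RNA was sequenced in 1 library per line and treatment, 4 libraries in all. No further agent or genetic change is given for any group, each group is a single library of 1 line, and the time between radiation and RNA collection is not given in the sources used here. With 1 library per condition no difference between conditions has a replicate check, and every interval below covers counting error only.

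Microtubules are built from dimers of 1 α- and 1 β-tubulin, and they form the mitotic spindle and the tracks along which vesicles and organelles travel. Vertebrates carry several α and β genes whose proteins are nearly alike in the folded body and differ most in the acidic carboxy-terminal tail. TUBB, TUBB4B, TUBA1B and TUBA1C are the broadly expressed genes of dividing cells, whereas TUBB2A, TUBB2B, TUBB3 and TUBA1A are best known from neurons, and TUBB3 is also known from drug-resistant carcinomas. Cells adjust the amount of tubulin mRNA to the amount of free tubulin dimer, through a co-translational decay pathway that starts with the protein TTC5.

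TUBB2A and TUBB2B lie on chromosome 6, with the pseudogene TUBB2BP1 between them, and are nearly identical, so their sequences are shown before their values. All coordinates are GRCh38, and those of the 10 genes in the deposited table are the same as in GENCODE release 29. TUBB2B occupies chr6:3224261-3231730 and TUBB2A chr6:3153669-3157526, both on the minus strand. Their coding sequences, each of 1338 bases in 4 exons, shared 1313 bases and differed at 25, an identity of 98.1%, with 1 identical run of 725 bases. The 60 coding bases with the most differences between them, coding bases 121 to 180 counted from the A of the start codon and interrupted by an intron in the genome, are shown first, with the bases that differ in capitals (7 in all).
TUBB2B: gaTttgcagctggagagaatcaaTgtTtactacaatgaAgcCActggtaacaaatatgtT
TUBB2A: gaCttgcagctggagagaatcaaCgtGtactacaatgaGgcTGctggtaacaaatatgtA

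The last 60 coding bases, stop codon included, encode the carboxy-terminal tail, where the β-tubulins differ most from one another. TUBB2A and TUBB2B are an exception, since the 2 bases that differ between them here leave the encoded tail the same. For TUBB2B the capitals mark bases that differ from TUBB2A, and for every other gene bases that differ from TUBB2B in an alignment of the whole coding sequences.
TUBB2B: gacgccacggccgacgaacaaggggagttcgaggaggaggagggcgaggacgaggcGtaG
TUBB2A: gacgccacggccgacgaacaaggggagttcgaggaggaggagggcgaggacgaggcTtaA
TUBB: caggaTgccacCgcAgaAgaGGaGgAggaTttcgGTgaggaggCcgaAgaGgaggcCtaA
TUBB4B: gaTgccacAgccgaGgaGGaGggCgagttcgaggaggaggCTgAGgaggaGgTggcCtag
TUBB3: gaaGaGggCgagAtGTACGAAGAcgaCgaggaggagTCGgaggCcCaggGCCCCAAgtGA
TUBB6: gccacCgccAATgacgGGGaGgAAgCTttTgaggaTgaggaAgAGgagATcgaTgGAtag

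These stretches lie at chr6:3224751-3224810 for TUBB2B and chr6:3153863-3153922 for TUBB2A, where 2 bases differ. In the same stretch TUBB differed from TUBB2B at 16 bases, TUBB4B at 14, TUBB6 at 22 and TUBB3 at 28. Over whole coding sequences TUBB2B was 87.4% identical to TUBB3, 86.7% to TUBB4B, 86.1% to TUBB6 and 84.7% to TUBB. Of all windows of 100 bases along the TUBB2B transcript, 53.8% occurred in no transcript of another gene, and 814 of 1921 windows also occurred in TUBB2A. For TUBB2A the unique share was 43.6%, while for TUBB, TUBB4B, TUBB6 and TUBA4A it was between 94.9% and 100%. TUBB3 had a unique share of 11%, and it overlaps the gene AC092143.1 on the same strand. The division of reads between TUBB2A and TUBB2B, and between TUBB3 and AC092143.1, therefore depended on the authors' counting, and the tool that made the counts is not given in the sources used here.

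For SW1990 cells the unirradiated library held 17939210 counts and the irradiated one 18388969, and for PANC-1 cells they held 23451153 and 20154644. A gene with no reads could still have up to 3 counts at this depth, and all 10 tubulin genes lay above that floor in every library, and all 10 had an FPKM (fragments scaled by transcript length and library depth) above 1 in all 4. Genes were tested in a comparison when either of its libraries reached an FPKM of 1, so none of the 10 was lost to that limit. The duct epithelial markers KRT7, KRT8, KRT18 and KRT19 had an FPKM of at least 1 in all libraries. EPCAM and CDH1 were more than 2-fold higher in unirradiated SW1990 than in unirradiated PANC-1 cells, and CDH1 was under FPKM 1 in unirradiated PANC-1 cells. After radiation all 6 of these markers were higher in SW1990 cells (median log2 fold change 0.39, with KRT8 at 0.48, KRT19 at 0.51 and CDH1 at 0.55) and 5 of 6 in PANC-1 cells (median 0.14), with 0 past 2-fold. TUBB2A and TUBA1C were also higher in irradiated SW1990 cells, and the part of these markers in that was not tested. Of 9 neuronal markers, 8 were listed at 0 in unirradiated SW1990 cells, 6 in irradiated ones, and 5 in each PANC-1 library. Their summed FPKM was 0.303 without and 0.308 with radiation in SW1990 cells, and 35.9 without and 17 with radiation in PANC-1 cells, most of it from the vesicle protein gene SYT1 (FPKM 33.5 and 13.7). RBFOX3, ELAVL4, NEFL and GAP43 were at 0 in all 4 libraries. The fall in SYT1 accompanies that of TUBB2B in PANC-1 cells only, and its part in the result was not tested. Of the markers of other cell types, PTPRC (immune), CD3E, COL1A2 and DCN had at most 2 counts in any library. The 3 endothelial markers were under FPKM 1 in all libraries, with a summed FPKM of 0.155 without and 0.309 with radiation in SW1990 cells, where VWF had 14 and 50 counts and CDH5 8 and 0, and of 0.00782 and 0.0685 in PANC-1 cells. The most abundant ones were CD68, with an FPKM of 18.8 in unirradiated and 13.9 in irradiated cells of PANC-1, and COL1A1, with 8.44 and 11 in the same line. In SW1990 cells the fibroblast and pericyte marker PDGFRB went from 129 to 63 counts (log2 fold change -1.01, or -0.59 from the FPKM values) while COL1A1 went from 103 to 165 (0.70, or 1.02 from the FPKM values). PDGFRB moved in the direction of TUBB2B there, and its part in the result was not tested. The summed FPKM of the 5 fibroblast markers was 2.96 without and 3.88 with radiation in SW1990 and 8.46 and 11.1 in PANC-1 cells. Fewer cells that express a gene and less RNA of it per cell cannot be told apart in these bulk libraries.

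In unirradiated cells, the level per length was carried by few genes. In SW1990 cells the FPKM was 647 for TUBB4B, 488 for TUBA1B, 474 for TUBB and 243 for TUBA1C. In PANC-1 cells TUBB led with 729, ahead of TUBA1B with 392, TUBA1C with 283 and TUBB4B with 268. These 4 genes thus lay above all others in both lines, in a different order. TUBA1A followed with an FPKM of 60.8 in SW1990 and 112 in PANC-1 cells. TUBB6 (24.6 and 23.5), TUBB3 (22.8 and 13.9), TUBB2A (20.1 and 14.4) and TUBB2B (13.1 and 14) came next, and TUBA4A was lowest (11.3 and 2.57). Without replicates, the spread of a level within a condition is unknown, so neighbours in this order, such as TUBB2A, TUBB2B and TUBB3 in PANC-1 cells, cannot be separated.

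**Figure D1:**
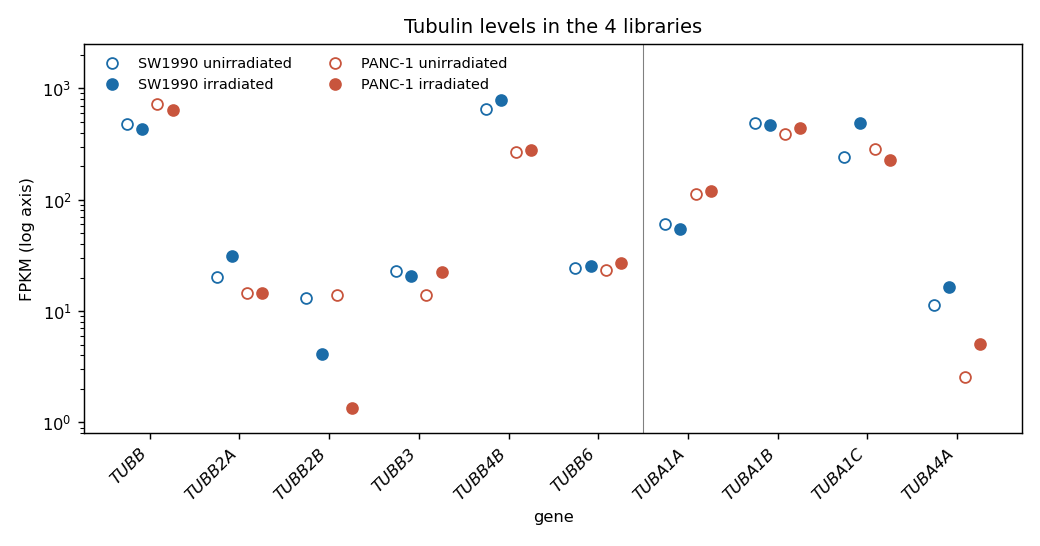
FPKM of the 10 tubulin genes (logarithmic axis) in each library. Open circles are unirradiated and filled circles irradiated cells, SW1990 in blue and PANC-1 in red, with β genes left and α genes right of the line. TUBB2B is the gene with the widest gap between open and filled circles in both lines, from 13.1 to 4.08 in SW1990 and from 14 to 1.35 in PANC-1 cells.

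The lines were also compared before radiation. This contrast was not itself used to choose the genes, but the changes of TUBB2B that were used share these unirradiated libraries. Of the 10 genes, 3 were past 2-fold, while 41.6% of all 16626 genes tested were past it (31.9% when only genes reaching an FPKM of 10 in either library were counted). TUBA4A, an α-tubulin gene that is prominent in brain, muscle and platelets, had 396 counts in SW1990 and 132 in PANC-1 cells, which is a log2 fold change of 1.74 (1.46 to 2.04, the exact 95% interval given by the counts). TUBB4B had 23347 and 12707 counts, a log2 fold change of 1.04 (1.0 to 1.07). TUBA1A was lower in SW1990 cells, with 1868 against 4528 counts and a log2 fold change of -1.12 (-1.20 to -1.04). The tubulin genes thus held 2 higher genes, against a background of 20.3% past 2-fold higher, and 1 lower gene, against 21.3% past 2-fold lower. TUBB was 1.81-fold lower in SW1990 cells (log2 fold change -0.86). TUBB2B itself differed little between the unirradiated lines, with 580 counts in SW1990 and 818 in PANC-1 cells and a log2 fold change of -0.34 (-0.49 to -0.18). Scaling by total counts in place of TMM (trimmed mean of M-values) moved the median log2 fold change of all genes in this comparison from -0.02 to 0.20, and under it TUBB6 turned from -0.07 to 0.15. TUBA1A was past 2-fold under TMM but not under total counts (-0.89) or from the FPKM values (-0.88), which leaves 2 of the 10 genes past it on either scale.

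After radiation, TUBB2B was the only one of the 10 genes past 2-fold in SW1990 cells, whereas TUBB2B and TUBA4A were past it in PANC-1 cells. In SW1990 cells 9.08% of 15731 genes tested were past 2-fold (4.49% higher and 4.59% lower), and 2.86% of those that reached an FPKM of 10. In PANC-1 cells 8.69% of 15159 genes were past 2-fold (4.59% higher and 4.1% lower), and 2.68% of those that reached an FPKM of 10. The median log2 fold change of the 10 genes was 0.25 in SW1990 cells, with 7 higher and 3 lower, beside a median of 0.02 over all genes tested. In PANC-1 cells it was 0.02, with 5 higher and 5 lower, beside -0.02 over all genes. These splits depended on the scale. From the FPKM values 5 were higher and 5 lower in SW1990 cells and 7 higher and 3 lower in PANC-1 cells, and total counts also gave 7 higher and 3 lower in PANC-1 cells. Since TUBB2B was chosen for its fall, nothing is read from the numbers past 2-fold.

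The TUBB2B counts were 580 (unirradiated) and 183 (irradiated) in SW1990, and 818 and 68 in PANC-1 cells. On the FPKM scale its level went from 13.1 to 4.08 and from 14 to 1.35. The unirradiated libraries of both lines were thus close to each other and the irradiated ones were lower, with the lowest value in PANC-1 cells. In SW1990 cells this was a log2 fold change of -1.64 (-1.89 to -1.40), a level 3.12-fold lower, and in PANC-1 cells one of -3.45 (-3.84 to -3.10), a level 10.9-fold lower. From the FPKM values the changes were -1.68 and -3.36. The difference between the lines, PANC-1 minus SW1990, was -1.81 (-2.24 to -1.38), which could not be tested because each combination of line and treatment has 1 library. Of 13228 genes tested in both lines, 0.378% were past 2-fold lower in both, the group from which TUBB2B was chosen. Of 8625 genes that reached an FPKM of 5 in either library of both lines, 21 had a lower log2 fold change than TUBB2B in SW1990 and 6 in PANC-1 cells. TUBB2B reached that FPKM in its unirradiated libraries only, and genes that stayed under it were not counted. Because TUBB2B was chosen by these same changes, its rank is a description and nothing is read from it.

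**Figure D2:**
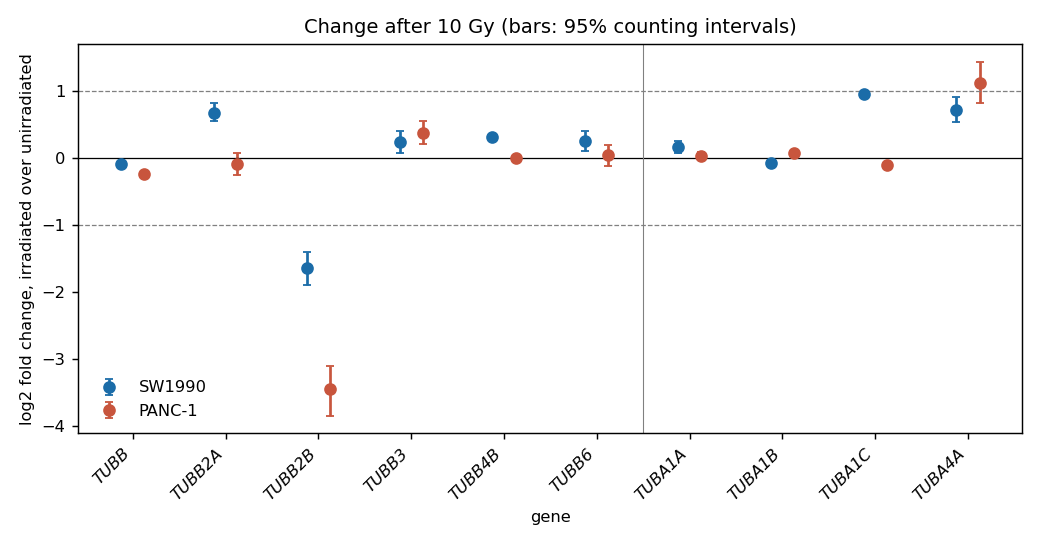
Log2 fold change of TMM-scaled counts, irradiated over unirradiated, for each gene in SW1990 (blue) and PANC-1 cells (red). Bars are 95% intervals from the counts, which cover counting error only, and dashed lines mark 2-fold. TUBB2B lies below the lower line in both lines (-1.64 and -3.45), TUBA4A above the upper line in PANC-1 cells (1.12), and TUBA1C just below it in SW1990 cells (0.96).

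TUBB2A, the close copy of TUBB2B, did not follow it. Its SW1990 libraries held 701 counts unirradiated and 1111 irradiated, so that the log2 fold change was 0.68 (0.55 to 0.82), and its FPKM went from 20.1 to 31.3. In PANC-1 cells it had 657 and 567 counts, a log2 fold change of -0.08 (-0.25 to 0.08) that turned to 0.01 under scaling by total counts and to 0.01 from the FPKM values. The irradiated SW1990 library was therefore the one that stood above the other 3 for TUBB2A, while for TUBB2B both irradiated libraries stood below both unirradiated ones. Added together, TUBB2A and TUBB2B held 1281 counts in the unirradiated SW1990 library and 1294 in the irradiated one, and the sum thus had a log2 fold change of 0.04 (-0.08 to 0.15). In PANC-1 cells the sum went from 1475 to 635 counts, a log2 fold change of -1.09 (-1.22 to -0.95), or -0.85 from the summed FPKM. These sums contain the TUBB2B counts by which the family was chosen. Whether reads of one copy were counted for the other was not tested.

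TUBB2B took 45.3% of the summed counts of the pair in unirradiated SW1990 cells (Wilson 95% interval 42.6% to 48%) and 14.1% in irradiated ones (12.3% to 16.1%). In PANC-1 cells its share went from 55.5% (52.9% to 58%) to 10.7% (8.54% to 13.4%). The share uses the TUBB2B counts by which the family was chosen, so it is a description. The pseudogene TUBB2BP1, which lies between the pair, had 15 and 30 counts in the SW1990 libraries, unirradiated and irradiated, and 28 and 15 in PANC-1 cells. With it included, the sums changed by 0.05 and -1.08.

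**Figure D3:**
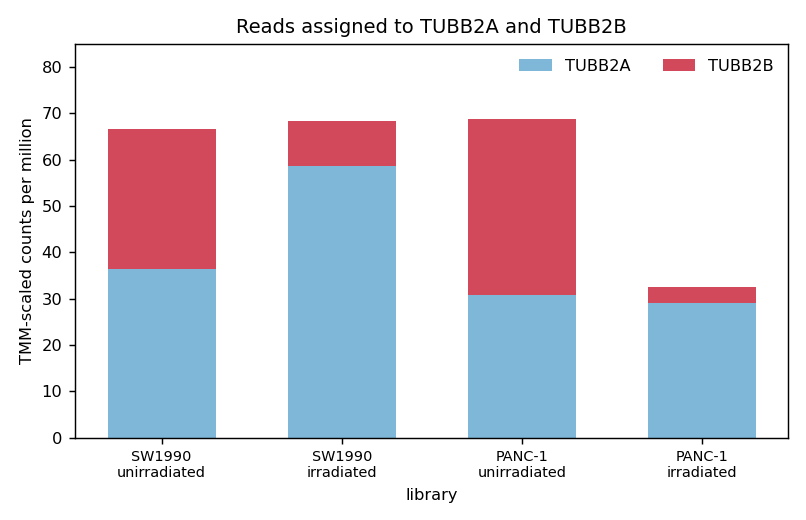
TMM-scaled CPM (counts relative to library size) of TUBB2A (blue) and TUBB2B (red), stacked, in each library. The bars of the SW1990 libraries have nearly the same height, with TUBB2B going from 30.2 to 9.66 and TUBB2A from 36.5 to 58.7, whereas in PANC-1 cells TUBB2B goes from 38.2 to 3.47 beside TUBB2A at 30.7 and 29.

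Of the other genes around TUBB2B, those nearest to it with more than 100 counts in every library moved by less than 2-fold. PSMG4, which encodes a chaperone of proteasome assembly and overlaps the start of TUBB2B on the opposite strand, had 553 and 476 counts in SW1990 cells and 437 and 358 in PANC-1 cells, log2 fold changes of -0.20 and -0.16. Its FPKM changed by -0.23 and -0.69 in log2, the latter in the direction of TUBB2B. Whether the counting used strand is not given in the sources used here, so reads from this overlap cannot be assigned with certainty. On the other side, BPHL changed by -0.04 in SW1990 and 0.09 in PANC-1 cells, RIPK1, a kinase of cell death signalling, by -0.03 and -0.19, and NQO2, a quinone reductase, by -0.07 and -0.18. SLC22A23, a member of a transporter family, changed by 0.13 and 0.55 (-0.14 and 0.14 on the FPKM scale). PXDC1, farther out, changed by 0.71 and -0.40, and the non-coding AL391422.3 next to it went from 193 to 91 counts in PANC-1 cells (-0.95). Of the 5 genes nearest on each side that were tested in at least 1 line, 1 was past 2-fold in SW1990 cells, AL590004.4, with 93 and 190 counts, and 0 were past it in PANC-1 cells, while TUBB2BP1 lay at 1.0 on the count scale in SW1990 cells. Over all genes tested, 9.08% were past 2-fold in SW1990 and 8.69% in PANC-1 cells. AL391422.3 was under FPKM 1 and not tested in SW1990 cells, and AL590004.4 likewise in PANC-1 cells.

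**Figure D4:**
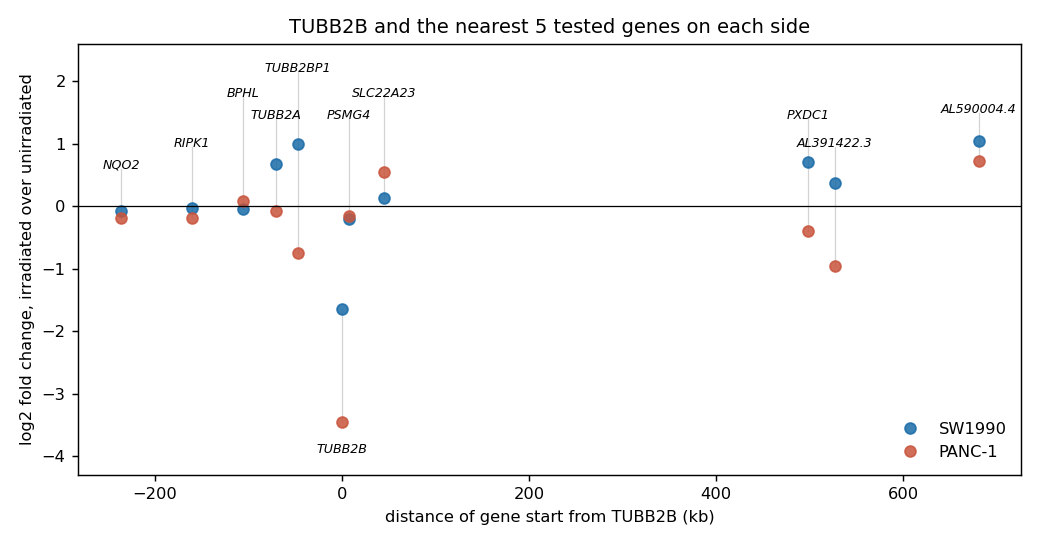
Log2 fold change after radiation of TUBB2B and, on each side, the 5 nearest genes tested in at least 1 line, against the distance of each gene's lowest coordinate from that of TUBB2B in kilobases, in SW1990 (blue) and PANC-1 cells (red). TUBB2B (-1.64 and -3.45) is the lowest point of each line, and PSMG4, which overlaps it, lies at -0.20 and -0.16.

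The abundant β-tubulin genes moved by less than 2-fold. TUBB held 27867 and 25822 counts in the SW1990 libraries, unirradiated and irradiated (log2 fold change -0.09), and 56336 and 43551 in PANC-1 cells (-0.24). For TUBB4B the SW1990 counts were 23347 and 28693 (0.32) and the PANC-1 counts 12707 and 11583, with an interval of the log2 fold change from -0.04 to 0.03. The counts are so high that these intervals are narrow, but they hold no spread between cultures. TUBB6, which is expressed in many non-neuronal tissues, changed by 0.25 (0.10 to 0.41) in SW1990 and 0.04 (-0.11 to 0.19) in PANC-1 cells. For TUBB3 the counts were 531 and 618 in SW1990 and 496 and 590 in PANC-1 cells, log2 fold changes of 0.24 and 0.38, whereas the FPKM values gave -0.14 and 0.71. The overlapping gene AC092143.1 had 107 counts in irradiated SW1990 cells and 0 in the other 3 libraries, and TUBB3 with AC092143.1 changed by 0.47 in SW1990 cells on the count scale and by -0.02 on the FPKM scale. TUBB3 thus had no settled direction in SW1990 cells, and was higher on both scales in PANC-1 cells.

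Among the α-tubulin genes, TUBA1C and TUBA1B went apart in SW1990 cells. TUBA1A and TUBA1B were 97.2% identical over the whole coding sequence, while TUBA1C was 96.8% identical to TUBA1B. Of all 100-base windows, 88.5% of TUBA1C, 81.7% of TUBA1A and 62.8% of TUBA1B occurred in no transcript of another gene. In the same order, the shares were 74.9%, 58.9% and 37.3% for windows of 50 bases, and 93.2%, 93.1% and 80.9% for 150. TUBA1C went from 11740 to 22535 counts in SW1990 cells, so that its log2 fold change was 0.96 (0.93 to 0.99), or 1.01 from the FPKM values, which is past 2-fold. In PANC-1 cells it had 15729 and 13408 counts, a log2 fold change of -0.10 (-0.13 to -0.07), or -0.31 from the FPKM values. The irradiated SW1990 library was the highest of the 4, and the other 3 lay between 11740 and 15729 counts. TUBA1B, the most abundant α-tubulin gene of the unirradiated cells, had 26170 and 24596 counts in SW1990 and 27888 and 26948 in PANC-1 cells, log2 fold changes of -0.07 and 0.08. The counts of TUBA1A, TUBA1B and TUBA1C together went from 39778 to 49208 in SW1990 cells, or by 0.33 on the log2 scale (0.31 to 0.35), and from 48145 to 44591 in PANC-1 cells, a log2 fold change of 0.02. TUBA1A had log2 fold changes of 0.17 and 0.03, but from the FPKM values -0.16 and 0.10. It overlaps the start of TUBA1C on the opposite strand.

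TUBA4A, at chr2:219249711-219278170, was higher in the irradiated library of both lines. The SW1990 libraries held 396 and 645 counts, unirradiated and irradiated, with a log2 fold change of 0.72 (0.54 to 0.91). In PANC-1 cells it had 132 and 263 counts, a log2 fold change of 1.12 (0.82 to 1.44). From the FPKM values the changes were 0.55 and 0.97, under 2-fold in both lines. The gene overlaps STK16 on the opposite strand. TUBA4A was lower in PANC-1 than in SW1990 cells at both doses, and the difference between the responses was 0.40 (0.05 to 0.75), which was not tested.

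On the FPKM scale, the make-up of the tubulin mRNA pool differed more between the lines than with radiation in the β family, and moved most in irradiated SW1990 cells in the α family. TUBB4B supplied 53.9% of the summed FPKM of the 6 β genes in unirradiated and 60.4% in irradiated SW1990 cells, against 25.2% and 28.6% in PANC-1 cells. TUBB supplied 39.4% and 33.3% in SW1990 cells and 68.6% and 64.7% in PANC-1 cells. TUBB2B was a minor part throughout, going from 1.09% to 0.316% in SW1990 cells and from 1.32% to 0.138% in PANC-1 cells. Of the 4 α genes, TUBA1C supplied 30.3% in unirradiated and 47.7% in irradiated SW1990 cells, while TUBA1B went from 60.8% to 45.4%. In PANC-1 cells TUBA1C went from 35.8% to 28.9% and TUBA1B from 49.7% to 55.3%. The ratio of the summed β to the summed α FPKM was 1.5 in the unirradiated SW1990 library and 1.26 in the irradiated one, and 1.34 and 1.25 in PANC-1 cells.

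**Figure D5:**
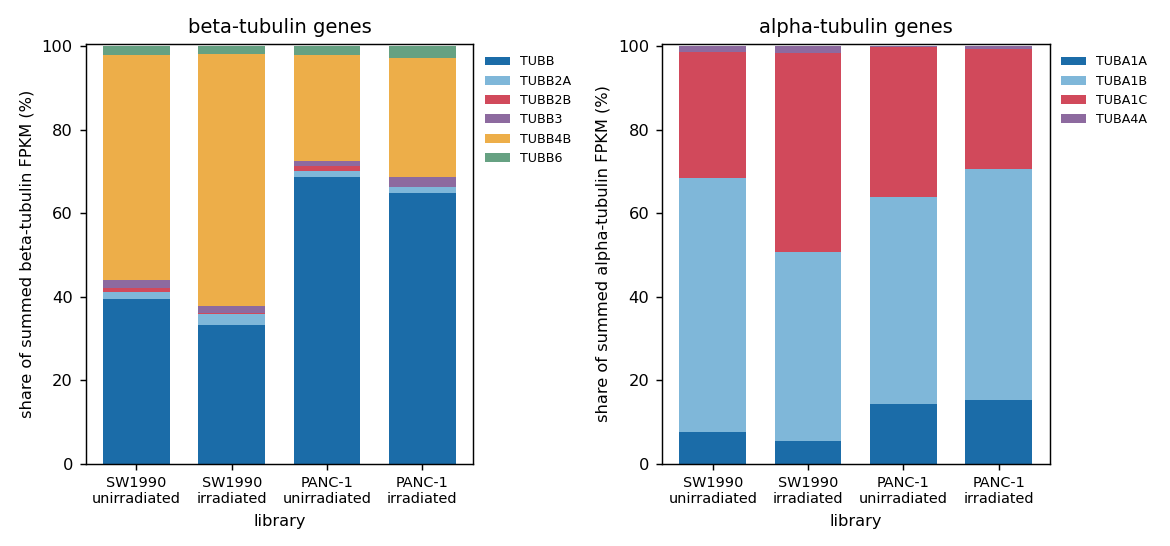
Share of each gene in the summed FPKM of the 6 β-tubulin genes (left) and of the 4 α-tubulin genes (right), in percent, for each library. TUBB4B is the largest β part in SW1990 cells (53.9% and 60.4%) and TUBB in PANC-1 cells (68.6% and 64.7%), and the TUBA1C part is largest in irradiated SW1990 cells (47.7%).

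All 4 libraries were also fitted together, with cell line as a covariate, so that a change had to recur in both lines (the quasi-likelihood test of edgeR with p-values adjusted by Benjamini-Hochberg over 18180 genes, on 1 residual degree of freedom). At an adjusted p-value below 0.05 there were 0 genes (0%), and 0 of the 10 tubulin genes. At an unadjusted p-value below 0.05 there were 877 genes, or 4.82%, among them TUBB2B, which was chosen for its fall and is not tested by this, and TUBA4A, with a log2 fold change of 0.92, an unadjusted p of 0.00915 and an adjusted p of 0.942 by edgeR. DESeq2's Wald test on the same libraries gave 39 genes below an adjusted p of 0.05 and limma-voom 0. None of the 10 tubulin genes was among the 39, though DESeq2 gave no adjusted p for TUBB2B and TUBA4A.

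Outside the 10 genes, the table held 10 further tubulin rows, pseudogenes included, that reached an FPKM of 1 in some library, and 34 of all 63 such rows were at 0 counts in all 4. Of a list of other tubulins and pseudogenes, 6 were tested in each line, with 0 past 2-fold in SW1990 cells and 1, TUBE1, past it in PANC-1 cells. Over all genes tested, 9.08% were past 2-fold in SW1990 and 8.69% in PANC-1 cells, where 4.1% were past 2-fold lower. On the FPKM scale TUBB2BP1 (1.05, on 15 and 30 counts) was also past 2-fold in SW1990 and TUBB4A (1.25) in PANC-1 cells. TUBE1 encodes ε-tubulin, which is needed for the triplet microtubules of centrioles. Its counts went from 372 to 244 in SW1990 cells (log2 fold change -0.59, interval -0.83 to -0.35, or -0.97 from the FPKM values) and 1977 and 718 in PANC-1 cells (-1.33, interval -1.46 to -1.21). It was lower in both irradiated libraries, and before radiation it was lower in SW1990 than in PANC-1 cells (log2 fold change -2.25). TUBD1, the gene of δ-tubulin, changed by 0.02 and 0.52, and TUBG1, the main γ-tubulin gene, by -0.04 and -0.28. TUBB4A had 108 counts without and 158 with radiation in PANC-1 cells (0.68) and was at 0 in both SW1990 libraries. TUBA8 showed the reverse, with 74 and 92 counts in SW1990 cells and 0 and 13 in PANC-1 cells.

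The genes that act on tubulin were read from lists, beside 9.08% of all genes tested past 2-fold in SW1990 and 8.69% in PANC-1 cells. Of 21 genes of tubulin folding, comprising the chaperonin, prefoldin and the tubulin cofactors, all were tested and 0 were past 2-fold after radiation in either line, with 14 of 21 lower in PANC-1 and 11 of 21 lower in SW1990 cells. With FPKM in place of counts, 11 were lower in PANC-1 and 16 in SW1990 cells, and again 0 were past 2-fold. The folding genes with the largest mean change were PFDN1 (0.46 in SW1990 and 0.79 in PANC-1 cells), PFDN2 (-0.26 and -0.97) and TBCA, a cofactor that binds β-tubulin (-0.43 and -0.56). Of 10 genes of tubulin mRNA autoregulation, 7 were lower in each line and 0 were past 2-fold. TTC5, which recognises nascent tubulin, changed by -0.51 and -0.22, CNOT2, a subunit of the deadenylase that shortens the poly(A) tail, by -0.46 and -0.47, and CNOT8 by 0.20 and -0.74. From the FPKM values TTC5 changed by -0.28 and -0.05, CNOT2 by -0.16 and -0.19 and CNOT8 by 0.06 and -0.04. Of 10 γ-tubulin ring complex genes, which nucleate microtubules, 0 were past 2-fold, with medians of -0.08 and -0.06, and MZT2B changed by -0.38 and -0.08. CDK5RAP2 changed by -0.19 in SW1990 and -0.28 in PANC-1 cells (0.01 and -0.08 from the FPKM values). NEDD1 changed by -0.27 and -0.15 (-0.44 and 0.08 from the FPKM values).

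Of the tubulin modifying enzymes, 17 were tested in each line. In each line 1 of the 17 was past 2-fold, beside 9.08% of all genes tested in SW1990 and 8.69% in PANC-1 cells. TTLL1, the catalytic subunit of a polyglutamylase that adds glutamates to tubulin tails, was past 2-fold lower in SW1990 cells (-1.19, from 112 to 48 counts) and changed by 0.25 in PANC-1 cells. AGBL2, a tubulin carboxypeptidase, was past 2-fold higher in PANC-1 cells (54 and 102 counts, 1.04) and had 23 and 40 counts in SW1990 cells. When FPKM was used, TTLL7 joined TTLL1 past 2-fold lower in SW1990 cells. TTLL3 changed by 0.59 in SW1990 and 0.34 in PANC-1 cells, but by -0.21 and 0.68 from the FPKM values. TPGS1 changed by -0.51 and -0.39 (-0.45 and -0.41 from the FPKM values). Of the microtubule associated proteins, 0 of 19 tested were past 2-fold in SW1990 cells and 4 of 20 were past 2-fold lower in PANC-1 cells, where 4.1% of all genes tested were past 2-fold lower. From the FPKM values MAP1B alone of these 4 was past 2-fold (-1.07). MAP1B, a large microtubule binding protein of growing axons, had 21218 counts without and 9169 with radiation in PANC-1 cells (-1.08), and 7 and 11 counts in SW1990 cells. MAP1S went from 759 to 323 counts in PANC-1 cells (-1.10, or -0.56 from the FPKM values) and changed by -0.03 in SW1990 cells. MAP9, which acts at the spindle, went from 481 to 172 counts in PANC-1 cells (-1.35, or -0.30 from the FPKM values), was at 0 in SW1990 cells, and MAP7 went from 138 to 62 (-1.02, or -0.95 from the FPKM values) and changed by -0.06 in SW1990 cells. MAP2, the dendritic microtubule protein, changed by 0.78 in SW1990 and 0.31 in PANC-1 cells, but by 0.48 and -0.16 from the FPKM values. Of the destabilisers and severing enzymes 0 were past 2-fold in either line. Their largest mean changes were those of STMN3 (0.34 and 0.85), KATNA1, the catalytic subunit of katanin (-0.28 and -0.46), and FIGNL1 (-0.39 and -0.29). Of 16 G2/M genes, 12 were higher in SW1990 and 9 in PANC-1 cells, with medians of 0.24 and 0.17 and 0 past 2-fold. On the FPKM scale 10 were higher in SW1990 and 11 in PANC-1 cells, with medians of 0.16 and 0.3. BIRC5, the survivin gene, changed by 0.51 and 0.74, and in PANC-1 cells by 1.17 from the FPKM values, which is past 2-fold. CDK1, the mitotic kinase, changed by 0.25 and 0.52, and NUSAP1, a spindle protein, by -0.37 and -0.66. The part of the cell cycle in the tubulin values was not tested.

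The genes whose pair of log2 fold changes lay nearest to that of TUBB2B, by Euclidean distance over the 2 comparisons among the 8625 genes above, were SNORD83B, XIAP, BTBD3, SNORD27 and MIR4737. XIAP, which encodes an inhibitor of caspases, went from 1021 to 508 counts in SW1990 and from 3186 to 565 in PANC-1 cells, log2 fold changes of -0.99 and -2.36, though the FPKM values gave -0.67 and -1.24. BTBD3, a BTB domain gene, went from 528 to 206 and from 1213 to 266 counts, log2 fold changes of -1.34 and -2.06, or -1.36 and -1.35 from the FPKM values. Both therefore fell short of TUBB2B in each line, at distances of 1.27 and 1.43. Since TUBB2B was chosen for its fall, nothing is read from that. SNORD83B, SNORD27 and MIR4737 are small RNA genes with at most 33 counts in any library. SNORD83B had 32 and 24 counts in SW1990 cells, with an interval of the log2 fold change from -1.22 to 0.41, and 15 and 1 in PANC-1 cells. SNORD27 had 33 and 30 counts in SW1990 cells, with an interval from -0.88 to 0.64, and 17 and 1 in PANC-1 cells. MIR4737 had 14 and 6 counts in SW1990 cells and 14 and 3 in PANC-1 cells. In irradiated PANC-1 cells all 3 were at or under the floor of 3 counts, so their place in this order rests on the prior count and no fold change is given for them there. Of the 8625 genes, 14 were past 2-fold lower in both lines.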

How the data were processed

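RNA of SW1990 and PANC-1 cells was sequenced, with 1 library per line and treatment. Per the labels and the methods, the authors trimmed reads with Trimmomatic 0.36, aligned them with HISAT2 2.0 to GRCh38 and computed FPKM values with StringTie 1.3.3b. The read counts were deposited without normalization. The 58174 rows with an Ensembl identifier were used, and 1089 StringTie loci, holding between 0.453% and 0.635% of the counts, were left out of library sizes. Counts were scaled by TMM (edgeR 4.0.16, R 4.3.3), and log2 fold changes used a prior count of 0.5. Genes that reached an FPKM of 1 in either library of a pair were tested. With 1 library per condition, a gene past a fold of 2 was counted and no p-value is given. A test on the reads of a pair (q below 0.001) compares those libraries, not the conditions, and served only as an alternative limit. Intervals cover counting error at 95% and were computed exactly after Clopper and Pearson (Wilson for shares, and for differences between lines, from the variances of the counts). The 4-library fit used edgeR's quasi-likelihood test, with DESeq2 1.42.0 and limma 3.58.1 as alternatives. The scripts were tested on simulated data. Coding sequences are those of GENCODE release 29 and were aligned with Biopython 1.88.

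The genes named are the 10 tubulins, in each list up to 3 genes whose mean change was largest (FPKM 1 reached in both lines), any list gene past 2-fold in both lines, the 5 genes nearest to TUBB2B on each side that were tested in at least 1 line, and the 5 genes nearest to it in pattern. Further markers of cell types, such as EPCAM and PTPRC, were named from their lists and follow none of these rules. AC092143.1, TTLL1, SYT1, CD68, COL1A1, PDGFRB, VWF, CDH5, TTLL7, MAP7, TUBB4A, TUBA8, AGBL2, MAP1B, MAP9 and the sums were added after values were seen, and so were the background at an FPKM of at least 10 and the list counts from FPKM. Of these genes, TTLL1, MAP7 and COL1A1 also met the rule on mean change. The members and lists were chosen with earlier results of these data known. Of 173 list symbols 172 were found in the table. Some sequences and 1 marker gene are not reported here.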

Additional observations from a re-analysis of the deposited data

Results flagged for a closer look

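TUBA1C and TUBA1B moved in opposite directions in the lines, with each counting interval under TMM scaling clear of 0. Under total counts TUBA1C in PANC-1 cells was at -0.01 (-0.04 to 0.02), so its opposite direction depended on the scaling, while TUBA1B was at -0.13 in SW1990 and 0.17 in PANC-1 cells. For TUBA1C the difference of the log2 fold changes, PANC-1 minus SW1990, was -1.06 (-1.11 to -1.02). For TUBA1B it was 0.15 (0.11 to 0.18). With 1 library per line and treatment neither difference was tested.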

How the results depend on the processing

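With the FPKM values in place of the counts, 2 of the 10 genes were past 2-fold after radiation in SW1990 cells (TUBB2B and TUBA1C) in place of 1, and 1 in PANC-1 cells (TUBB2B) in place of 2. At a fold limit of 1.5 the number in SW1990 cells was 4, with TUBB2A, TUBA1C and TUBA4A joining TUBB2B. The summed TUBB2A and TUBB2B changed by -0.85 in PANC-1 cells from the FPKM values, and TUBB2B took 1.14% of the β-tubulin counts of unirradiated PANC-1 cells, beside 1.32% of the FPKM. The causes were not tested. The fit without a replicate block, that is without the cell line term, gave 0 of the 10 genes below an adjusted p of 0.05 (edgeR), as did each other fit of the 4 libraries, though DESeq2 gave no adjusted p for TUBB2B and TUBA4A. Over all genes DESeq2 gave 39 below an adjusted p of 0.05, and edgeR 0 under each of its settings, with 877 below an unadjusted p of 0.05 with the cell line term and 41 without it. Leaving out a library leaves this fit without residual degrees of freedom, so the changes of a single line stand in its place. Among 30 changes of single genes, DESeq2's size factors moved 0 outside their counting interval, total counts 18 and FPKM 22. Depth limits TUBB2B most in irradiated PANC-1 cells, where it rests on 68 counts.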
